A study of Mus musculus with 12 samples.

Results

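Pol II signal at 34 genes of the cell cycle and of DNA replication was compared between crypt, villus and labelled HNF4 double-knockout villus of the mouse duodenal epithelium. Members were taken by gene symbol from the 6429 genes of 2 deposited comparison tables. The symbols cover the Mcm helicase, Orc and Rfc families, cyclins of the A, B, D, E and G classes, and Cdk1, Cdk2 and Cdk4. Also taken were the Cdkn, Cdc, E2f, Cenp and Anapc symbols, the Aurk, Bub and Plk kinases, and 7 single markers. Symbols beginning with Cdc42 or Cdc73 were left out. The same rule takes 125 genes that have counting windows, so 27.2% of them were in the tables, against 25.4% of the 25119 genes with windows. The other 91 were not analysed here, among them Mki67, Top2a, Rrm1, Rrm2, Tyms, Birc5, Cdk1, Cdk2, all A, B and E cyclins, and Mcm2 to Mcm6.

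The assay was chromatin immunoprecipitation of RNA polymerase II (Pol II) followed by sequencing, which counts DNA fragments bound by the enzyme. Per the labels, 3 libraries came from villus and 3 from crypt of adult wild-type (WT) mice given a vehicle of ethanol and corn oil. A further 3 came from villus of adult mice labelled as double knockouts (DKO) of Hnf4 alpha and gamma, 2 transcription factors of the gut epithelium, after tamoxifen at 50 mg/kg/day on 2 days and were killed 1 day after the last injection. Tissue was held in 3 mM EDTA for 35 minutes in WT and 25 minutes in mutant mice, and a 70 µm filter let crypts through and kept villi. Genotype, tamoxifen and EDTA time cannot be told apart, and the Cre driver, the animals behind each library and pooling are not given in the sources used here.

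Crypts hold the stem and transit-amplifying cells, which divide, and villi hold cells that have left the cycle. Entry into S phase is driven by D-type cyclins with Cdk4, which inactivate the retinoblastoma protein and free E2F factors to switch on replication genes. The replication genes load the MCM helicase at origins and bring in PCNA and its loader, while Plk1, Aurora kinases and the anaphase-promoting complex run mitosis, and CDK inhibitors such as p21 hold cells out of the cycle.

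Each value below is a log2 fold change ± its standard error (SE) from the authors' deposited table for that comparison, with DESeq2's adjusted p over all 6429 genes. A gene was called where that p was under 0.05. The libraries behind a fold change are not given one by one in these tables. A level per group was therefore solved from a gene's mean signal and its 2 deposited fold changes, taking the groups as equally large. It is given in size-factor-normalised counts, without an error of its own, and is compared only within a gene, since the mean signal rises with the span of the gene (Spearman's rho of 0.790 across 6391 genes, which share the same libraries). Labels do not say whether libraries came from separate animals, so the p-values measure the spread between these libraries. In bulk epithelium, fewer cells of a type and less Pol II per cell cannot be told apart.

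The labels were checked against marker genes first. All 21 enterocyte genes present in the authors' deposited tables were higher in WT villus than in crypt, and 4 of the 6 crypt stem genes present were lower. Sp5 of the stem list went the other way, at 1.37 for villus over crypt (adjusted p 9.21e-07) and 2.75 for WT over labelled-DKO villus. Between genotypes Sp5 was the only one of the 6 stem genes called higher in WT, and 3 were called lower. That was 50% lower, beside 29.5% of all genes. The stem markers Lgr5, Olfm4, Ascl2 and Smoc2 were not among the genes tested, nor were any of 6 Paneth cell or 12 mesenchyme genes. Among 8 goblet cell genes 5 were higher and 2 lower in villus than in crypt, and 3 were lower in WT than in labelled-DKO villus. Of 4 immune genes present, 1 was higher and 1 lower in each table. Whether such cells play a part in the results below was not tested. Against the label, both targeted genes had less signal in WT than in labelled-DKO villus in the authors' deposited table, with -0.54 ± 0.14 for Hnf4a (adjusted p 4.84e-04) and -1.45 ± 0.22 for Hnf4g (7.81e-10). Which windows these values were counted over is not stated and so the deletion could not be checked, and the villi are called labelled-DKO throughout. The 21 enterocyte genes all had more signal in WT villus here too, with a median log2 fold change of 2.07. Directions between genotypes rest on the name of the table, as the fit gives no sample names.

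Between WT villus and WT crypt, 5 of 7 replication genes, the 3 D cyclins, Cdk4, Cdc25a, Plk1 and Aurka had less Pol II in villus, while Cdkn1a, Ccng2, Cdkn2aip and the replication gene Rfc5 had more. Of the 34 genes, 18 were called in the authors' deposited table, 14 lower and 4 higher in villus. Over all genes 37.4% were called, 18.8% lower and 18.6% higher, against 41.2% lower and 11.8% higher among the 34. The median log2 fold change of the 34 was -0.20, with a range of -0.95 to 1.39, beside -0.04 over all genes. Centred on the median of all genes, the count was 11 lower and 4 higher, beside 14.8% lower and 21.1% higher over all genes.

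Between WT villus and labelled-DKO villus, 18 of the 34 genes were called in the authors' deposited table, 15 lower and 3 higher in WT. Ccnd2, Rfc4, Plk1 and Ccnd1 had the largest differences. The background was 51.9% called, 29.5% lower and 22.4% higher in WT, against 44.1% lower and 8.82% higher among the 34. The median was -0.21, with a range of -1.11 to 0.61, beside -0.08 over all genes. Centring left 12 lower and 3 higher, beside 22.1% lower and 26.6% higher over all genes.

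Labelled-DKO villus was set against WT crypt by subtracting one deposited log2 value from the other, so that WT villus cancels. Its SE was the root of the summed squared SEs, an upper limit where libraries vary independently, so calls are conservative. By this test 4 of 34 genes were called, Cdkn1a and Ccng2 higher and Aurka and E2f3 lower in labelled-DKO villus. Over all genes 13.6% were called, 6.41% higher and 7.19% lower, so the share of the 34, 5.88% in each direction, was near the background. The median was 0.07 beside 0.003 over all genes. With the SE that equal error variance in the 3 groups would give, 12 of the 34 were called, 8 higher and 4 lower. Over all genes 29.9% were called with that SE, 15.4% higher and 14.4% lower. Both deposited comparisons use the same WT villus libraries, and an error in those libraries moves both the same way, so their values are given side by side below and no relation is drawn between them.

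**Figure D1:**
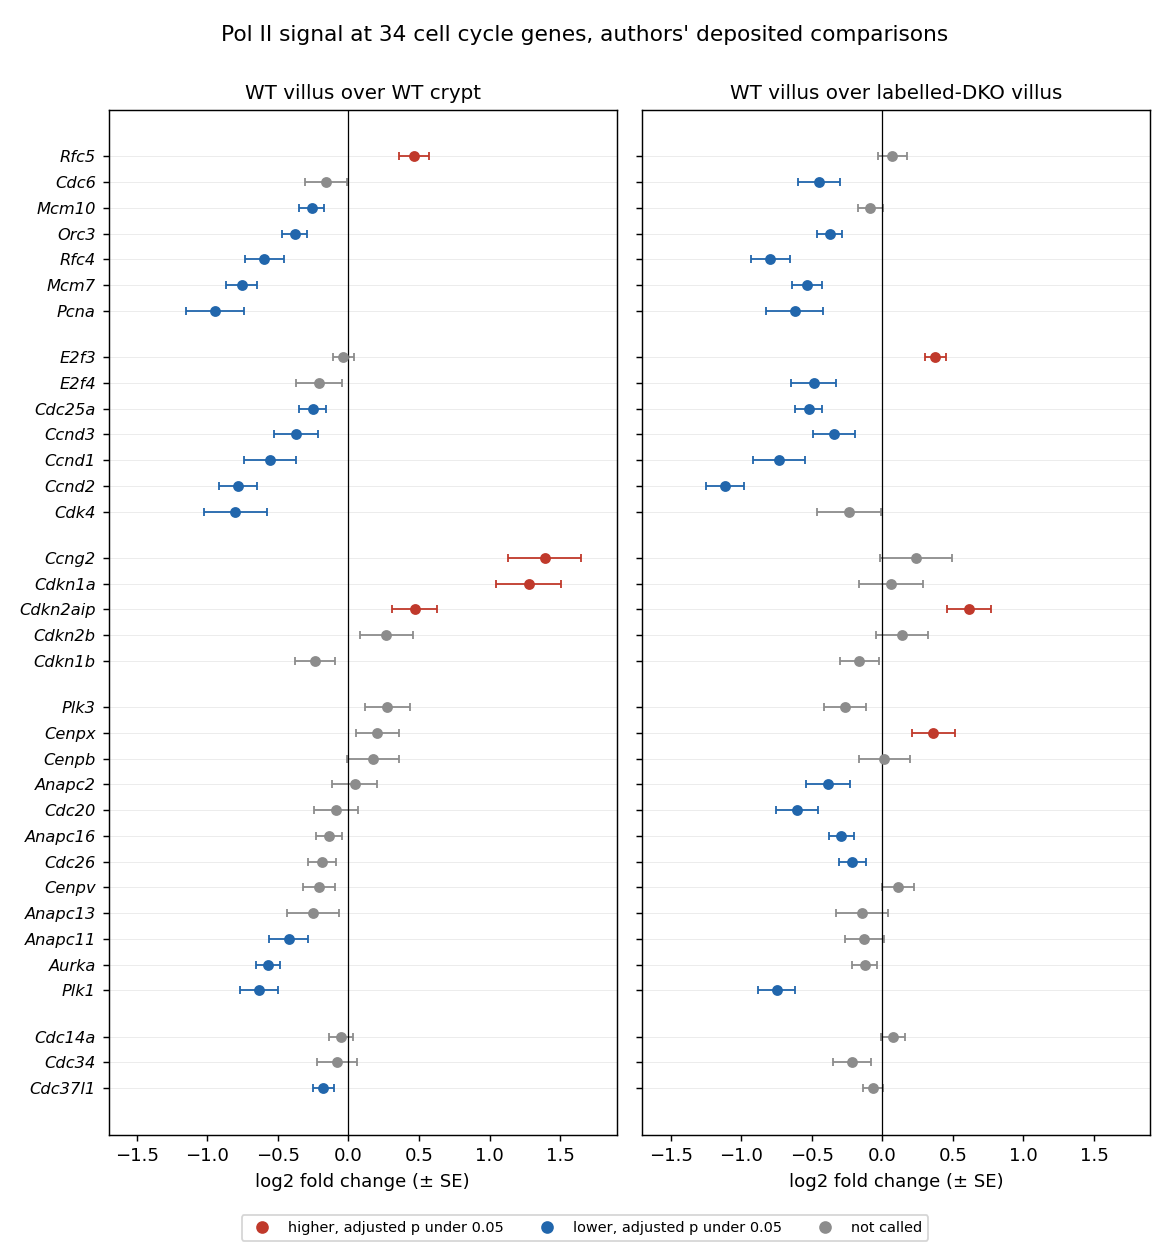
Log2 fold change of Pol II signal (x axis, ± SE) at each of the 34 genes (rows, grouped by role) for WT villus over WT crypt (left) and WT villus over labelled-DKO villus (right), from the authors' deposited tables. Points are coloured by the adjusted p of 0.05. On the left 14 genes are called lower and 4 higher, and on the right 15 lower and 3 higher.

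Of the replication genes, 7 were in the tables. Pcna encodes the sliding clamp that holds DNA polymerases on the template. Its rebuilt level was 115 counts in WT crypt, 59.9 in WT villus and 92.1 in labelled-DKO villus, so WT villus was the lowest of the groups. In the authors' deposited tables Pcna had a log2 fold change of -0.95 ± 0.20 for villus over crypt (adjusted p 2.77e-05), a 1.93-fold lower signal and the largest decrease of the 34. For WT over labelled-DKO villus it had -0.62 ± 0.20 (0.00568). Labelled-DKO villus and crypt were not told apart at Pcna, with -0.32 and a 95% interval of -0.89 to 0.24.

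The clamp is opened by replication factor C, and its small subunits Rfc4 and Rfc5 differed in direction between villus and crypt. Rfc4 had rebuilt levels of 177 counts in crypt, 117 in WT villus and 203 in labelled-DKO villus. Its deposited changes were -0.60 ± 0.14 for villus over crypt (adjusted p 1.18e-04) and -0.79 ± 0.14 for WT over labelled-DKO villus (4.85e-08). At Rfc5 crypt was the lowest group, with 155 counts in crypt, 214 in WT villus and 203 in labelled-DKO villus. Rfc5 was, in the authors' deposited tables, higher in villus than crypt at 0.47 ± 0.11 (adjusted p 8.32e-05) and was not called between genotypes, at 0.07 ± 0.10 (0.579). Labelled-DKO villus over crypt stood at 0.39 for Rfc5, just outside the threshold at an adjusted p of 0.0535, and was called there when genes with mean signals below 100, or those with overlapping windows, were left out. The Rfc4 gene body window overlaps that of Eif4a2 on the other strand, and no strand setting of the counting is recorded. Eif4a2 itself had -0.51 ± 0.21 for WT over labelled-DKO villus in the authors' deposited table (adjusted p 0.0329) and was not called for villus over crypt, at -0.43 ± 0.21 (0.0976).

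Among the genes that license origins, Mcm7, a subunit of the replicative helicase, had the smallest adjusted p. Its rebuilt level was 105 counts in crypt, 62.3 in WT villus and 90.3 in labelled-DKO villus. The authors' deposited tables gave Mcm7 -0.76 ± 0.11 for villus over crypt (adjusted p 1.17e-10) and -0.54 ± 0.11 for WT over labelled-DKO villus (4.10e-06). Windows of Mir25, Mir93 and Mir106b, microRNAs transcribed within Mcm7, lie inside its gene body, so their shared transcript is counted as Mcm7. Mcm10, which acts after loading, had a smaller decrease in villus of -0.26 ± 0.09 (adjusted p 0.0114) and was not called between genotypes, at -0.08 ± 0.09 (0.424).

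Orc3 encodes a subunit of the origin recognition complex, which marks origins for loading. Its rebuilt level of 294 counts in WT villus lay below 382 in crypt and 381 in labelled-DKO villus. The deposited changes were -0.38 ± 0.09 (adjusted p 1.37e-04) and -0.37 ± 0.09 (9.53e-05), and the 95% interval of labelled-DKO villus over crypt ran from -0.25 to 0.24. The body window of Orc3 overlaps that of Akirin2 on the other strand, which had like values in the authors' deposited tables, -0.28 ± 0.09 (0.00465) and -0.31 ± 0.08 (8.28e-04), so the reads of the pair cannot be told apart where they overlap. Cdc6, which loads the helicase on that complex, was not called between villus and crypt at -0.16 ± 0.15 (adjusted p 0.430). Between genotypes Cdc6 was called at -0.45 ± 0.15 (0.00560) in the authors' deposited table.

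Promoters of genes of S phase entry and replication are printed here because E2F sites, and the paired CHR and CCAAT elements of mitotic genes, are the classic promoter elements of the cell cycle. RefSeq promoter sequences (GRCm38.p6, 250 bases before to 50 after a start) were matched by symbol for 31 of the 34 genes and gave 39 promoters. Both strands were searched for TTTCCCGC, TTTCGCGC, TTTGCCGC or TTTGGCGC (E2F type), TTTGAA or TTCGAA (CHR type) and CCAAT. A match of E2F type was in 6 of the 39 promoters (15.4%), beside 3.49% of the 6589 promoters of all genes in the tables. The CHR type was in 25.6% beside 13.0%, and CCAAT in 41.0% beside 37.8%. Counted by gene, CCAAT was in 41.9% of the 31 beside 42.8% of all genes with a promoter sequence, so it was no more common. A single match shared a base with a match of another kind. These shares are descriptions of letters, not of bound sites. The genes with an E2F type match were Mcm7, Cdc6, Orc3, Cdc25a, E2f3 and Cenpb. Of these, Mcm7, Orc3 and Cdc25a were called lower in villus than crypt, and Cdc6, E2f3 and Cenpb were not called there.

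The 5 promoters below, up to the base before the start, carry E2F type matches, and capitals mark every E2F, CHR or CCAAT match on either strand (GCGGGAAA and ATTGG are matches on the other strand). The Mcm7 promoter also holds an E2F type match 16 bases and a CCAAT match 23 bases after the start, beyond the stretch printed. Mcm7 is at chr5:138171884-138172063 (minus strand), Cdc6 at chr11:98907991-98908150 (plus), Orc3 at chr4:34614943-34615062 (minus), Cdc25a at chr9:109875429-109875578 (plus) and E2f3 at chr13:29986064-29986223 (minus), all GRCm38.p6.
Mcm7: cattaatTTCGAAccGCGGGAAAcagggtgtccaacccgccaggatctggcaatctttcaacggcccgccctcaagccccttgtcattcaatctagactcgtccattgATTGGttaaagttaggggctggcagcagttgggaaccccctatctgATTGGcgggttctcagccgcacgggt
Cdc6: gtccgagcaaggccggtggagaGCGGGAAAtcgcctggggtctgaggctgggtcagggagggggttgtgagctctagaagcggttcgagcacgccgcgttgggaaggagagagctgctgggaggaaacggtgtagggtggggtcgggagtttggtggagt
Orc3: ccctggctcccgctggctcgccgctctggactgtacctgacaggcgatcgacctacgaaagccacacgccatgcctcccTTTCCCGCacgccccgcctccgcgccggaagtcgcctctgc
Cdc25a: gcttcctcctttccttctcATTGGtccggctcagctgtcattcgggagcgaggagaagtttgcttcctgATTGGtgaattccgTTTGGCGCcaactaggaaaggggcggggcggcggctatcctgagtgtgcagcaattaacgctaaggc
E2f3: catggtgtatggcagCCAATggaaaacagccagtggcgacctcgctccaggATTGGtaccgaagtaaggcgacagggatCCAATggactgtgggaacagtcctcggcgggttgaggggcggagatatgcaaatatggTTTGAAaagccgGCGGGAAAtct

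The 3 D cyclins were each called lower for villus over crypt and for WT over labelled-DKO villus, comparisons that share the WT villus libraries. Ccnd2 had the largest difference between genotypes of the 34 genes. Its rebuilt level was 238 counts in crypt, 138 in WT villus and 299 in labelled-DKO villus. In the authors' deposited tables Ccnd2 had -0.78 ± 0.13 for villus over crypt (adjusted p 9.43e-08) and -1.11 ± 0.13 for WT over labelled-DKO villus (7.84e-16), which is 2.16-fold more in labelled-DKO villus. Against crypt, labelled-DKO villus stood at 0.33, with a 95% interval of -0.04 to 0.70. Windows of Ccnd2 overlap those of 9330179D12Rik on the other strand, which was not among the genes tested. Body windows of Ccnd1 and Ccnd3 overlap those of LTO1 and Bysl, also on the other strand. Reads of such pairs cannot be told apart where they overlap.

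Ccnd1, the D cyclin that Wnt signals induce in many tissues, had levels of 106, 71.9 and 120 counts in the same order. The deposited changes of Ccnd1 were -0.56 ± 0.19 (adjusted p 0.0104) and -0.74 ± 0.18 (2.49e-04). Ccnd3 had the lowest mean signal of the 34 genes, 47.3 counts, and passed the threshold narrowly in both tables, at -0.37 ± 0.15 (0.0435) and -0.34 ± 0.15 (0.0419). Both Ccnd3 calls were lost after centring. Their kinase Cdk4 was lower in villus than crypt by -0.80 ± 0.22 (adjusted p 0.00177), 1.74-fold, in the authors' deposited table. Unlike the cyclins it was not called between genotypes, at -0.24 ± 0.23 (0.387), though a difference between these genes was not tested.

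Cdc25a, the phosphatase that removes the inhibitory phosphate from CDKs at the start of S phase, had rebuilt levels of 214 counts in crypt, 180 in WT villus and 259 in labelled-DKO villus. It was called between genotypes at -0.52 ± 0.09 (adjusted p 1.62e-07) in the authors' deposited table. For villus over crypt its -0.25 ± 0.10 (0.0264) was no longer called after centring. Of the E2F genes 2 were tested, and they moved in opposite directions between genotypes. E2f4, which acts mostly as a repressor in resting cells, was lower in WT than labelled-DKO villus at -0.48 ± 0.16 (adjusted p 0.00600). E2f3, an activator, was higher in WT at 0.38 ± 0.07 (1.22e-06), with levels of 495 counts in crypt, 483 in WT villus and 372 in labelled-DKO villus. E2f3 was also lower in labelled-DKO villus than in crypt, at -0.41 ± 0.10 (adjusted p 0.00103). Neither was called between villus and crypt, at -0.21 ± 0.16 (0.336) for E2f4 and -0.04 ± 0.07 (0.733) for E2f3 in the authors' deposited table.

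Of the 5 genes of the Cdkn symbols and cyclin G, 3 rose from crypt to villus and 2 were not called. Cdkn1a encodes p21, the inhibitor of CDKs that p53 induces. Its rebuilt level was 113 counts in crypt, 275 in WT villus and 264 in labelled-DKO villus, so both villus groups stood above crypt. The authors' deposited table gave Cdkn1a 1.28 ± 0.23 for villus over crypt (adjusted p 4.20e-07), a 2.43-fold higher signal. Between genotypes the value was 0.06 ± 0.23 (0.842), with a 95% interval of -0.39 to 0.51. Labelled-DKO villus over crypt was 1.22 ± 0.32 (adjusted p 0.00268), 2.33-fold.

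Ccng2, an unconventional cyclin linked to exit from the cycle, followed the same order with 156, 410 and 348 counts. The authors' deposited tables gave Ccng2 1.39 ± 0.26 for villus over crypt (adjusted p 8.86e-07), the highest value of the 34, and 0.24 ± 0.25 between genotypes (0.446). Against crypt the labelled-DKO villi stood at 1.15 ± 0.36 (adjusted p 0.0155). The inhibitors Cdkn1b, which encodes p27, and Cdkn2b, which encodes p15, were called in neither table. Cdkn1b had -0.24 ± 0.14 (0.180) and -0.16 ± 0.14 (0.318), and Cdkn2b had 0.27 ± 0.19 (0.273) and 0.14 ± 0.19 (0.546). Cdkn2aip is no CDK inhibitor but a protein that binds the product of Cdkn2a. It was the gene of the 34 with the highest value of WT over labelled-DKO villus, 0.61 ± 0.16 (adjusted p 3.03e-04), beside 0.47 ± 0.16 for villus over crypt (0.0110). Its rebuilt level was 142 counts in WT villus against 103 in crypt and 92.9 in labelled-DKO villus.

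**Figure D2:**
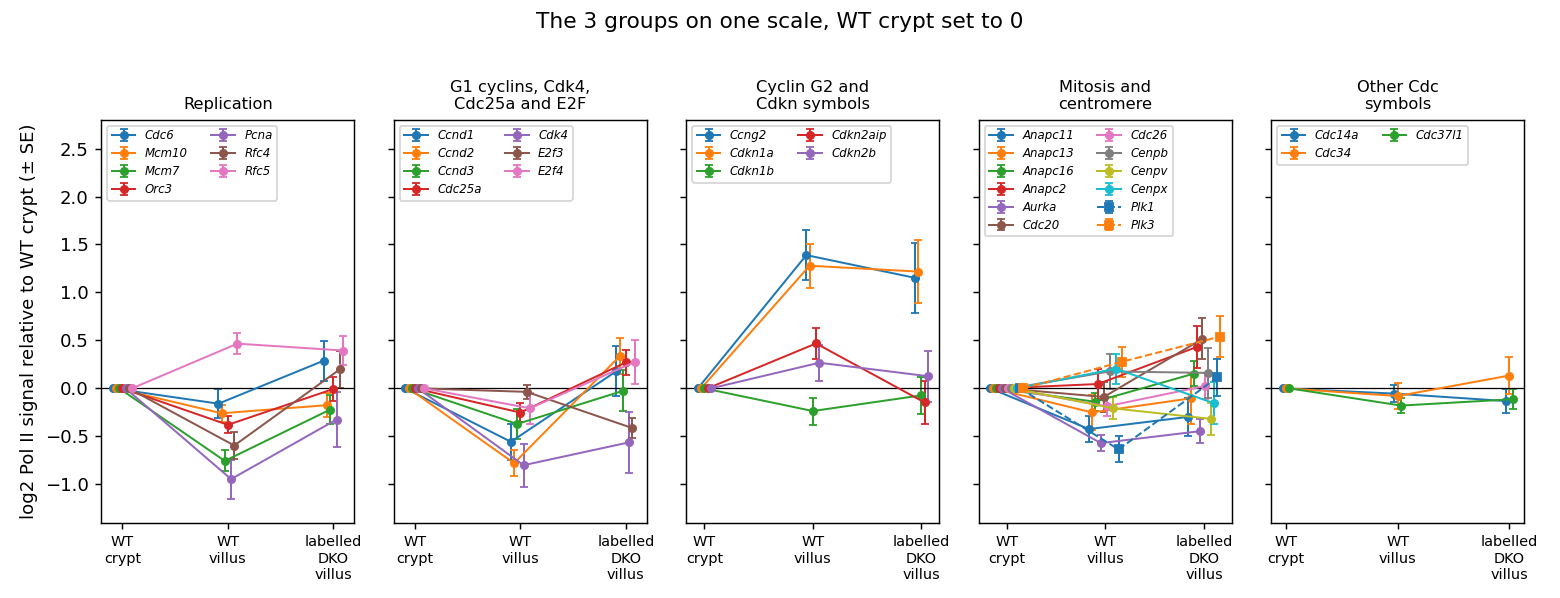
Log2 Pol II signal relative to WT crypt (y axis, crypt set to 0) in WT villus and labelled-DKO villus for each gene, in 5 panels by role. Bars are SEs, deposited for WT villus and the largest possible for labelled-DKO villus, and lines join the values of 1 gene. Pcna, Mcm7 and Ccnd2 dip in WT villus, while Cdkn1a and Ccng2 stand above 1 in both villus groups.

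Of the mitotic genes, Plk1, the kinase that drives entry into and passage through mitosis, had rebuilt levels of 123 counts in crypt, 78.9 in WT villus and 133 in labelled-DKO villus. The authors' deposited tables gave Plk1 -0.64 ± 0.14 for villus over crypt (adjusted p 2.59e-05) and -0.75 ± 0.13 for WT over labelled-DKO villus (1.36e-07). Aurka, the spindle-pole kinase that activates Plk1, was also lower in villus, at -0.57 ± 0.09 (1.77e-09). Aurka was not called between genotypes, at -0.12 ± 0.09 (0.235). Its levels were 165 counts in crypt, 111 in WT villus and 121 in labelled-DKO villus, and labelled-DKO villus was lower than crypt at -0.45 ± 0.12 (adjusted p 0.00448). Plk3, a stress-responsive kinase of the same family, was called in neither table, at 0.28 ± 0.16 (0.156) and -0.26 ± 0.15 (0.123).

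Cdc20 activates the anaphase-promoting complex, the ubiquitin ligase that ends mitosis. By the authors' deposited tables, Cdc20 was not called for villus over crypt, at -0.09 ± 0.15 (adjusted p 0.693), and was lower in WT than in labelled-DKO villus at -0.61 ± 0.15 (1.68e-04). Its levels were 77.8 counts in crypt, 73.2 in WT villus and 111 in labelled-DKO villus. Of the subunits of the complex, 5 were tested. Anapc11, its RING subunit, was called lower in villus than crypt at -0.42 ± 0.14 (adjusted p 0.00852) and not between genotypes (-0.13 ± 0.14, 0.455). Anapc2, its cullin subunit, Anapc16 and Cdc26 were called lower in WT than in labelled-DKO villus, at -0.39 ± 0.16 (0.0283), -0.29 ± 0.09 (0.00278) and -0.21 ± 0.09 (0.0476), and not between villus and crypt. The Anapc2 and Cdc26 calls were lost after centring. Anapc13 was called in neither table.

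The 3 centromere symbols had no call between villus and crypt. Cenpx, a small histone-fold protein shared with a DNA repair complex, was called between genotypes at 0.36 ± 0.15 (adjusted p 0.0368), higher in WT. Cenpb, which binds centromeric satellite DNA, had 0.18 ± 0.18 (0.486) and 0.02 ± 0.18 (0.951), and Cenpv had -0.21 ± 0.12 (0.147) and 0.11 ± 0.11 (0.430) in the authors' deposited tables. The other Cdc symbols differed little. Cdc14a, a phosphatase, had the highest mean signal of the 34, 733.6 counts, and the widest span of windows, 152330 bases, with -0.05 ± 0.09 (0.661) and 0.08 ± 0.09 (0.459). Cdc34, a ubiquitin-conjugating enzyme, was called in neither table, at -0.08 ± 0.14 (0.698) and -0.21 ± 0.14 (0.175). Cdc37l1, a cochaperone of HSP90, was called lower in villus at -0.18 ± 0.07 (0.0451), which was lost after centring.

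Promoters of the mitotic genes Cdc20, Aurka and Plk1 are shown with their CCAAT matches, marked as before. Each of them also holds a CHR type match. That of Cdc20 lies 18 bases before the start, between CCAAT matches at 53 and 8 bases before it, and those of Aurka and Plk1 lie 32 and 30 bases after the start, beyond the stretch printed. Cdc20 is at chr4:118437344-118437463 (minus strand), Aurka at chr2:172370571-172370690 (minus) and Plk1 at chr7:122159315-122159434 (plus), GRCm38.p6.
Cdc20: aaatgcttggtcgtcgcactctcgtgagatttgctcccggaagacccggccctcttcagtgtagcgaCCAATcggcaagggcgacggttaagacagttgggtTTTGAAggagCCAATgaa
Aurka: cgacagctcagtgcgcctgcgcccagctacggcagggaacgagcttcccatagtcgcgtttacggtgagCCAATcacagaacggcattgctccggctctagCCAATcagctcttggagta
Plk1: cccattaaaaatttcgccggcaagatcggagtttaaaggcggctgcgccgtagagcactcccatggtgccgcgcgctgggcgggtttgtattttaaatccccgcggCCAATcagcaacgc

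Several of these genes share a promoter region with another gene, which bears on what their signal counts. By the starts implied by the promoter windows (mm9), 9 of the 34 had a start of another gene on the opposite strand within 1000 bases upstream. These were Anapc11, Anapc13, Anapc16, Anapc2, Aurka, Cdc26, Cenpx, Mcm7 and Orc3, and Rars2, a mitochondrial tRNA synthetase gene, starts 15 bases from Orc3. For 4 of them the neighbour was in the tables. Ap4m1, whose start is 138 bases from that of Mcm7, was called in neither authors' deposited table, at -0.13 (adjusted p 0.690) for villus over crypt and -0.39 (0.128) for WT over labelled-DKO villus. Ssna1, 48 bases from Anapc2, was higher in villus than crypt at 0.76 ± 0.21 (0.00125), where Anapc2 was at 0.05. Alyref beside Anapc11 and Lrrc45 beside Cenpx were called in neither table. Windows of 18 of the 34 genes overlapped those of another gene. Beside the 9 named above, these were Ccnd1, Ccnd2, Ccnd3, Cdc20, Cdc25a, Cdc37l1, Cdkn2b, Plk3 and Rfc4. Among the 16 without an overlap, with p adjusted over the 3761 such genes, 8 were called between villus and crypt, 4 in each direction, and 6 between genotypes, 4 lower and 2 higher in WT. Over all such genes 39.1% were called between villus and crypt, 17.9% lower and 21.2% higher. Between genotypes 54.5% of them were called, 29.3% lower and 25.3% higher in WT. Lower calls in villus thus did not outnumber higher ones among the 16.

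The deposited gene body windows treat the strands differently. For all 19858 transcripts on the plus strand the window starts 350 bases after the start of transcription. For all 21190 on the minus strand it begins 350 bases before it and so covers the promoter window. Whether the deposited comparisons were counted over these windows is not stated. Of the 34 genes 14 are on the plus strand, with 6 called lower and 2 higher in villus, and 20 on the minus strand, with 8 lower and 2 higher. The medians of villus over crypt were -0.22 and -0.16.

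Other genes of the cycle, from 3 lists that leave out the 34, were read in the same tables. Of 45 other replication genes 11 were tested. By the authors' deposited tables, lower values in villus than crypt were called at 5 and higher ones at 0, or 45.5% lower beside 18.8% of all genes. Between genotypes 3 were lower and 0 higher in WT than labelled-DKO villus. That share of 27.3% lower was near the 29.5% of all genes. Labelled-DKO villus differed from crypt at 0, where 13.6% of all genes were called. At an unadjusted p under 0.05, in the DESeq2 values, 0 were higher in either table, and 0 differed between labelled-DKO villus and crypt. Tk1, the salvage kinase for thymidine, had -0.68 ± 0.12 (adjusted p 1.43e-07) and -0.71 ± 0.12 (1.24e-08). Of 63 other mitosis genes 12 were tested, with 7 lower and 0 higher in villus by DESeq2 (1 higher at an unadjusted p under 0.05). Between genotypes 7 were lower and 2 higher in WT than labelled-DKO villus. The share lower was 58.3% in each comparison, beside 18.8% and 29.5% of all genes. Cks2, a CDK-binding protein, had -0.93 ± 0.19 (7.70e-06) and -0.83 ± 0.19 (4.17e-05), and Tuba1b, an alpha-tubulin, -0.95 ± 0.13 (1.58e-11) and -0.54 ± 0.13 (1.75e-04). Pkmyt1, the kinase that restrains Cdk1, was called between genotypes at -0.97 ± 0.15 (2.69e-10) and not between villus and crypt, at -0.22 ± 0.15 (0.255). It was higher in labelled-DKO villus than crypt at 0.75 ± 0.21 (0.00461). Spc25, a kinetochore protein, was lower in labelled-DKO villus than crypt at -0.59 ± 0.19 (0.0219).

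The list of G1/S and checkpoint regulators, with 17 of 45 tested, was divided. Between genotypes 4 were called higher and 5 lower in WT than labelled-DKO villus. These shares, 23.5% and 29.4%, were near the 22.4% and 29.5% of all genes. For villus against crypt the authors' deposited table had 6 higher and 4 lower, or 35.3% and 23.5%, beside 18.6% and 18.8% of all genes. Those higher were Mxd1, Mxi1 and Max of the MYC network, the antiproliferative genes Btg1 and Btg2, and the stress gene Gadd45a. Those lower were Myc, Cul1 at -0.29 ± 0.11 (adjusted p 0.0208), Rb1 at -0.30 ± 0.11 (0.0244) and Trp53 at -0.34 ± 0.13 (0.0246). Rb1 encodes the retinoblastoma protein and Trp53 encodes p53, so genes that restrain the cycle were on both sides. Mxd1, a repressor that competes with MYC for MAX, had 2.03 ± 0.26 (adjusted p 7.08e-14) for villus over crypt and 0.92 ± 0.25 (9.70e-04) for WT over labelled-DKO villus. Myc moved the other way, at -1.06 ± 0.18 (2.93e-08) and -0.67 ± 0.18 (5.36e-04). Btg2 had values of 1.07 ± 0.24 (4.38e-05) for villus over crypt, -0.18 ± 0.23 (0.540) between genotypes and 1.25 ± 0.33 (0.00246) for labelled-DKO villus over crypt. Gadd45a had 1.37 ± 0.26 (1.12e-06) and 1.09 ± 0.25 (7.07e-05), Mxi1 had 0.72 ± 0.10 (4.24e-11) and 1.12 ± 0.10 (5.76e-27), and Max had 0.77 ± 0.06 (1.73e-37) and 0.76 ± 0.06 (1.59e-40). Mdm2, which degrades p53, was higher in labelled-DKO villus than in crypt at 0.51 ± 0.15 (0.00892). In the same comparison Mxd1 was higher at 1.11 ± 0.36 (0.0199) and Mxi1 lower at -0.41 ± 0.14 (0.0372). The G1/S list had 3 called higher and 1 lower there, or 17.6% and 5.88%, beside 6.41% and 7.19% of all genes. The 3 lists together held 40 tested genes, of which 40% were lower and 15% higher in villus than crypt, beside 18.8% and 18.6% of all genes. Between genotypes 37.5% were lower and 15% higher in WT, beside 29.5% and 22.4%.

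**Figure D3:**
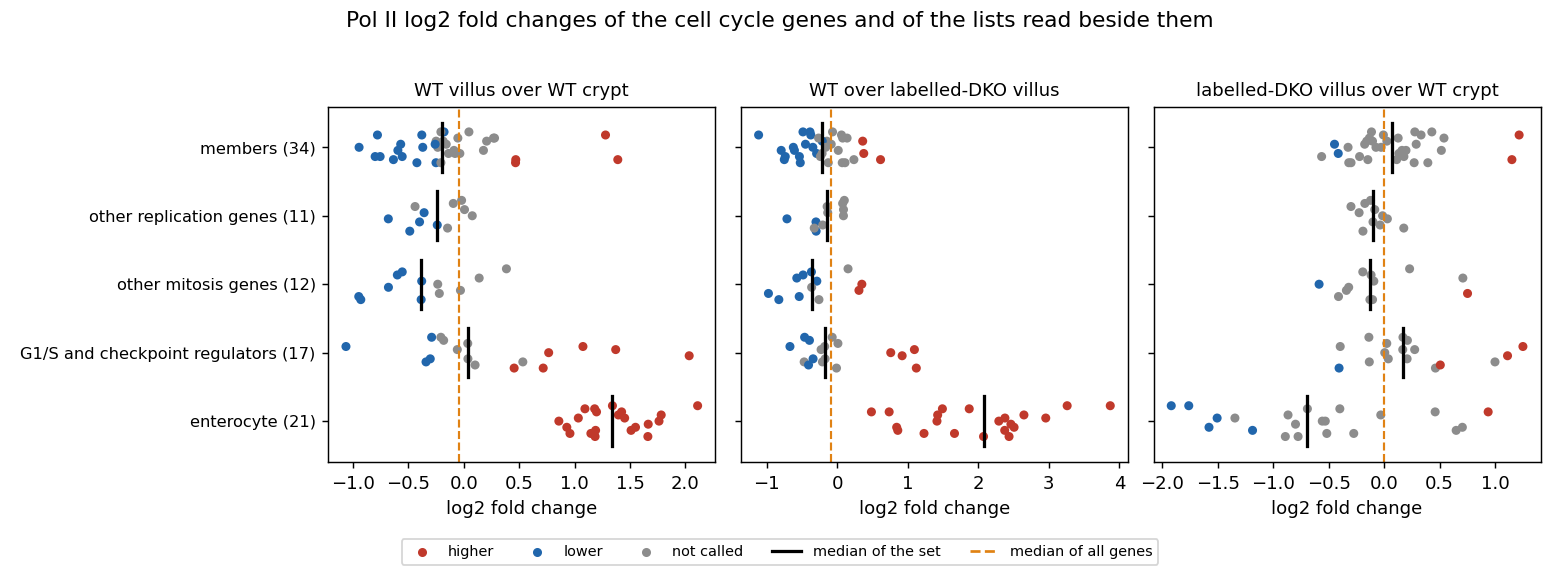
Log2 fold changes (x axis) of the 34 genes, the 3 other cell cycle lists and the enterocyte list (rows, number of tested genes in brackets) in the comparisons named above each panel. Each point is a gene, black bars are list medians and the dashed line is the median of all 6429 genes. In the first panel the medians are -0.20 for the 34, -0.24 for replication and -0.38 for mitosis genes, beside -0.04 over all genes. That of the G1/S list is 0.04, and each of these sets has genes on both sides of the line. The enterocyte genes lie above the line in the first and second panels.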

How the data were processed

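Pol II ChIP-seq libraries of 3 groups, 3 each, and 3 input libraries were made by the authors. Per the submitters' processing notes, reads were aligned to mm9 with Bowtie2 2.2.6 and compared with DESeq2 1.36.0. Per the file headers, featureCounts 2.0.3 counted reads of mapping quality 30 or more. The authors' deposited tables give a mean normalised signal, log2 fold changes, SEs, Wald scores and p-values. Deposited adjusted p-values match a Benjamini-Hochberg adjustment over the 6429 genes. The 18 columns of counts per library carry no sample name and were not used, so total counts per library are not given here and depth shows only in the SEs. Mean signal over all 6429 genes ran from 13.1 to 6634 and the median SE was 0.14 in each table. Computed here, with Python 3.11.15, pandas 2.3.3 and scipy 1.17.1, were the rebuilt levels, the labelled-DKO villus against crypt test (normal p, Benjamini-Hochberg over 6429 genes), motif searches and overlaps of the mm9 windows. Of these, only the labelled-DKO villus against crypt test was tried on simulated data, drawn with equal error variance in the 3 groups. All 34 genes are described. From the other lists, genes with the largest called changes were named, up to 4 in each direction. Btg1, Cul1, Rb1 and Trp53 were named after their values were seen. Members and lists were chosen with earlier results of these data known. Sequences are from RefSeq (GRCm38.p6). Alternatives were a stricter p, fold limits, centring, a minimum signal, genes without overlapping windows and another SE.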

Additional observations from a re-analysis of the deposited data

How the results depend on the processing

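Total counts of called genes, higher and lower together, stayed within 1.5 times the reported count at an adjusted p under 0.01, after centring and at a mean signal of at least 100, except for the other cell cycle genes in labelled-DKO villus against crypt, where 6 became 3 at the stricter p. Counts in 1 direction moved more. Of the 34, those lower in villus than crypt went from 14 to 9 at the stricter p. Those higher in labelled-DKO villus than crypt went from 2 to 1 at that p. The minimum signal kept only 21 of the 34. Lower in villus than crypt were 8 of these 21, against 14 of 34 without the minimum. Lower in WT than labelled-DKO villus were 9 of the 21, against 15 of 34. Over all genes of that signal 23.2% and 35.1% were lower in these comparisons. With an absolute log2 fold change over 1, the called genes of the 34 fell from 18 to 2 for villus against crypt, from 18 to 1 between genotypes and from 4 to 2 for labelled-DKO villus against crypt, and those of the other cell cycle genes from 22 to 4, from 21 to 2 and from 6 to 2. Over 0.5 the counts were 10, 9 and 2 for the 34, and 12 and 10 in the deposited comparisons for the other genes. Without overlapping windows, 8 and 6 of the 16 members that remained were called, and 12 of 23 other genes between genotypes. Lower calls in villus went from 14 of 34 to 4 of 16 while higher calls numbered 4 in both, and the cause was not tested. Equal error variance gave 12 of the 34 and 11 of the other genes in labelled-DKO villus against crypt. Over all genes, a limit of 1 left 285, 559 and 223, a limit of 0.5 left 1172 and 1879 in the deposited comparisons, no overlap left 1470 and 2051, and labelled-DKO villus against crypt had 558 at p under 0.01 and 1920 with equal variance. Centring turned the sign of 2 uncalled values, Cdc37l1 between genotypes (0.015) and E2f3 between villus and crypt (0.0055). Of the values of single genes under the alternatives, 470 had the reported direction and call, 71 fell below it and 10 passed it. A gene not called in the main setting cannot change at a stricter p or under a fold limit, so part of the 470 was fixed in advance. Alternatives for the other cell cycle genes were chosen after seeing the data. No paired analysis was possible because no value per library could be tied to a sample. For the same reason leaving out each replicate, another count test and another normalisation were not run.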
